A study of Mus musculus with 18 samples.

Results

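The genes described here encode mitochondrial ribosomal proteins. They were taken by name, as every non-control array probe whose gene name begins with Mrpl or Mrps followed by a digit. The rule found 67 of 41174 non-control probes, for 52 genes, of which 30 are named Mrpl and 22 Mrps. No expression value entered the choice. Thymocytes, which are T cells in development, came from C57BL/6 mice of 6, 16 and 24 months, with 3 mice at each age. RNA of each older mouse was labelled with Cy3 and hybridised together with Cy5-labelled RNA of 1 month old C57BL/6 mice, on 9 Agilent arrays of 2 colours. The study's design text calls the 1 month RNA a pool, whereas its sample labels number 9 single 1 month mice, and the files did not settle this. The mice carried no named allele and received no named treatment. The cells were a strained thymus suspension after lysis of red cells, and the labels describe no sort for a thymocyte stage.

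Mitochondrial ribosomes translate the few messages that mitochondrial DNA encodes, all for subunits of the respiratory chain and ATP synthase. Their proteins are encoded in the nucleus, translated in the cytosol and imported, and they assemble with mitochondrial rRNAs into a small subunit that reads the message and a large subunit that joins amino acids. Some of them descend from bacterial ribosomal proteins, and others are found only in mitochondria. Thymocytes that divide build new mitochondria and so need these ribosomes. Mitochondrial translation has also been linked to lifespan: lower mrps-5, the worm counterpart of Mrps5, lengthens life in Caenorhabditis elegans.

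Of the 52 genes, 31 belong to the large subunit, among them Mrps18a despite its name, and 20 to the small subunit. Mrps36 belongs to neither: its product links subunits of the oxoglutarate dehydrogenase complex of the citric acid cycle. A bacterial counterpart is known for 36 genes, and 16 have none. RefSeq on GRCm38.p6 places the members on 16 chromosomes, with 39 matched through the accession of the probe and 13 through the symbol.

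Promoters of genes for mitochondrial proteins often hold sites for NRF1, for ETS factors such as GABPA, or for YY1. Windows of 300 bases, 250 before and 50 after the start of the gene, were given by RefSeq for 45 of the 52 members and for 27025 genes in all. The ETS letters CCGGAAG, read on both strands, were in 16 of the 45 member windows (35.6%) and in 9.12% of all windows. The YY1 letters AAGATGG were in 10 (22.2%), against 6.48% of all windows. The NRF1 letters (GCGC and TGCGC with any base between them, read on both strands) were in 5 (11.1%), against 4.78%. GGGCGG, the core of SP1 sites, was in 24 (53.3%) against 35.9%, the E-box CACGTG in 4 (8.89%) against 7.24%, and TATAAA in 4 (8.89%) against 14.2%. The windows of members had a median GC content of 57.7%, against 52.7% over all windows. The 250 bases before the start are shown for 3 genes that were lower at 24 months than in the 1 month channel and 1 that was higher, 5′ to 3′ on the strand of the gene, from RefSeq on GRCm38.p6. Capitals mark matches to the ETS, NRF1 or YY1 letters. Mrps22 lies on the minus strand (chr9:98601680-98601929), Mrpl3 on the plus strand (chr9:105053018-105053267), Mrpl39 on the minus strand (chr16:84735245-84735494) and Mrps5 on the plus strand (chr2:127587176-127587425).
Mrps22: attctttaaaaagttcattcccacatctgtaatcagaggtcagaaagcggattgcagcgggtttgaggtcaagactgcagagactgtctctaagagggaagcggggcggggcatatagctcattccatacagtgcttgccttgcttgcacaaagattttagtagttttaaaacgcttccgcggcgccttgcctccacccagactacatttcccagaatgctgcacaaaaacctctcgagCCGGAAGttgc
Mrpl3: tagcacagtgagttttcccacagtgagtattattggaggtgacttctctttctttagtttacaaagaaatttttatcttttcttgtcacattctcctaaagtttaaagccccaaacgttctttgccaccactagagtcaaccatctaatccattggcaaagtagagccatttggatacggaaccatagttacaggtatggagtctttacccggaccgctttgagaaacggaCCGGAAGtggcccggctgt
Mrpl39: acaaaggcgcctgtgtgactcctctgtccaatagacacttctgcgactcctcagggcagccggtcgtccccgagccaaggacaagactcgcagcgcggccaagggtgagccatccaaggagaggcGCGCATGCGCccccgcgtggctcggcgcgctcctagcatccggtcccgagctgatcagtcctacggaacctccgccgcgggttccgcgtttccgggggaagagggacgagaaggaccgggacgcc
Mrps5: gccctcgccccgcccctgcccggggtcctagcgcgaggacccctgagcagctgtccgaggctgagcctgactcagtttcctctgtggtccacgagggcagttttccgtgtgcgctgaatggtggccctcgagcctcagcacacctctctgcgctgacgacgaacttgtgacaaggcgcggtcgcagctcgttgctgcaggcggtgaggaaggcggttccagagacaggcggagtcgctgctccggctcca
The ETS match begins 11 bases before the start in Mrps22 and 19 bases before it in Mrpl3, and the NRF1 match 125 bases before it in Mrpl39. The Mrps5 stretch holds no match to these 3 motifs. These examples do not stand for their groups. The same stretch of Mrpl20, Mrps14, Mrpl40 and Mrps31, all called lower at 24 months, holds no match. That of Mrps11, called higher, holds a YY1 match that begins 106 bases before the start. Among members with a window, the ETS letters were in 5 of the 17 that were called lower at 24 months, 0 of the 4 called higher and 11 of the 24 not called. The YY1 letters were in 2, 2 and 6 of the same groups, and the NRF1 letters in 1, 0 and 4. A match of letters is a description of the sequence and shows no binding.

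All values below are log2 ratios of the Cy3 signal (6, 16 or 24 months) to the Cy5 signal (1 month) on the same array, from the processed signals of the scanner software. A value above 0 means a stronger signal in the older mouse. A gene with several probes is represented by the brightest, and a gene was called at a Benjamini-Hochberg adjusted p under 0.05 in limma, adjusted over all 37449 tested probes. All 67 member probes passed the filter on dim probes, 65 of them were well above background in both channels on all 9 arrays, and 0 were saturated. Shares over the whole array are given over 34993 names, each with 1 probe. Because Cy3 always carried the older mouse and Cy5 always the 1 month RNA, a ratio against 0 cannot tell age and dye apart. If the 1 month RNA was a pool, such a ratio also leaves out the spread among 1 month mice. If it came from single mice, that spread is within the ratios and each array had its own reference. Differences between 6, 16 and 24 months compare Cy3 with Cy3, each over 1 month RNA.

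The arrays were not alike. On the array of 24 months replicate 2 the member probes had a median Cy5 signal of 3595, against 4688 to 6025 on the other 8 arrays, and its share of features with Cy3 well above background was 79.6%, against 85.9% to 94.2% on the others. Mean haemoglobin log ratios, a measure of red cell RNA, were -1.08, -1.01 and -0.66 at 6 months, 0.97, 0.56 and -0.40 at 16 months, and -0.94, 0.15 and 0.67 at 24 months. Of 11 thymocyte markers, 10 were measured, among them Cd3e, Cd4, Cd8a, Rag1 and Ptcra, and all 10 were well above background in both channels on all arrays. Markers of other cells were detected too: summed signals of 6 measured macrophage markers gave log2 ratios of -0.40 to -0.16 at 6 months, 0.47 to 1.40 at 16 months and 0.05 to 1.29 at 24 months. The 6 plasma and B cell markers gave 0.02 to 0.10, 0.55 to 1.39 and 0.31 to 1.19 at the same ages. The summed signals of the 6 granulocyte markers gave -1.91 to -1.54, -2.31 to 1.95 and -2.70 to -1.62. These sums do not speak for each marker. Taken 1 by 1, the granulocyte markers had medians of -0.20, 0.11 and -0.75 at these ages. Of the 6, 5, 3 and 6 lay below 0, and 0, 0 and 2 were called lower. Called higher were 0, 2 and 1 of the macrophage markers, and 0, 3 and 1 of the plasma and B cell markers. The summed signal of the 5 measured thymic epithelium markers was below the reference on all 9 arrays. It gave -1.69 to -1.47 at 6 months, -1.49 to -1.24 at 16 months and -1.24 to -0.45 at 24 months. Singly, 4, 3 and 2 of the 5 were called lower at these ages, and 1 of the 5 lay above 0 at 6 months. The haemoglobin fits given below concern red cell RNA only. The part of macrophages, B cells, granulocytes and epithelium in the results below was not tested.

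At 24 months, 20 of the 52 genes fell below the 1 month reference (38.5% of members, where 13.4% of all names were called lower) and 6 were above it (11.5% of members, against 11.5% of all names). The median log2 ratio of the members was -0.12, against -0.02 over all names, and 35 of the 52 genes lay below 0. All 3 arrays of 24 months had a ratio below 0 for 29 of the 52 members (55.8%), against 31.1% of all names, and a ratio above 0 for 12 (23.1%, against 25.5%). Changes were small: the lowest member, Mrps22, was at -0.68, which is 1.60-fold lower, and the quartiles of the members were -0.30 and 0.085. In RNA from whole cell suspensions, fewer cells of a type and less RNA per cell cannot be told apart. Without replicate 2 of 24 months, 8 members were called lower (15.4%, against 4.92% of all names) and 3 higher (against 6.02%). Without replicate 1, 8 were called lower (15.4%, against 4.95%) and 1 higher (against 4.37%). Without replicate 3, 16 were called lower (30.8%, against 11.2%) and 4 higher (against 7.68%). With haemoglobin as a covariate, 18 were called lower (34.6%, against 12.2%) and 6 higher (against 10.8%), at a median of -0.11.

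**Figure D1:**
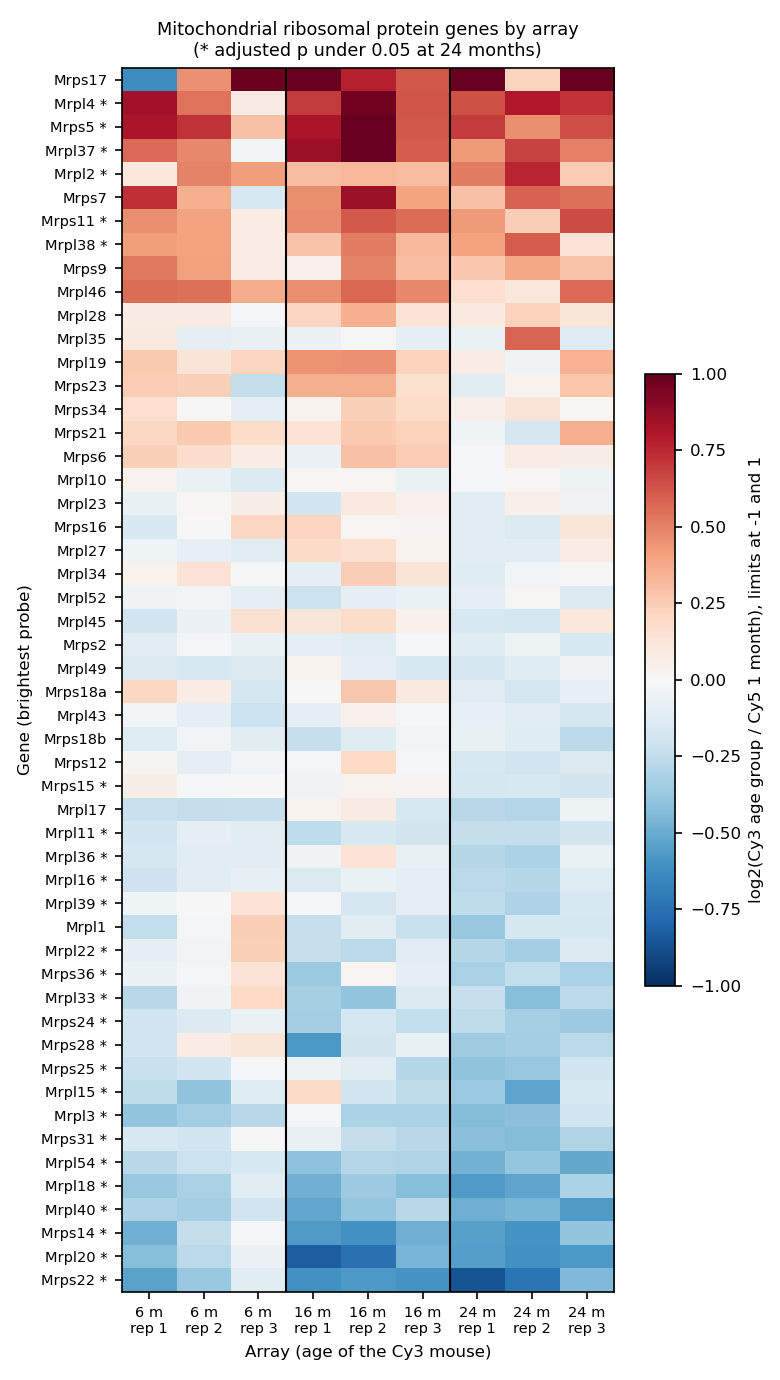
Heat map of the log2 ratio to the 1 month reference for all 52 genes (ordered down the page by their mean at 24 months) on the 9 arrays (left to right, 6, 16 and 24 months with 3 mice each). Colours stop at -1 and 1, asterisks mark the 26 genes called at 24 months, and genes at the bottom such as Mrps22 and Mrpl20 are below 0 on every array while Mrps5 and Mrpl4 near the top are above 0 on every array.

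In the large subunit, 12 of 31 genes were called lower at 24 months and 4 higher, with a median of -0.12. In the small subunit, 7 of 20 were called lower and 2 higher, with a median of -0.08. Of the 36 genes with a bacterial counterpart, 13 were called lower and 4 higher (median -0.11), and of the 16 without one, 7 lower and 2 higher (median -0.12). Over all names, 13.4% were called lower and 11.5% higher at 24 months. The differences between these classes were not tested.

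Among large subunit genes the lowest at 24 months was Mrpl20, the counterpart of a bacterial protein that binds rRNA early in assembly (chromosome 4, 155802878 to 155808831). Its log2 ratios were -0.43, -0.27 and -0.06 at 6 months, -0.83, -0.75 and -0.46 at 16 months, and -0.55, -0.61 and -0.58 at 24 months. The 24 month arrays lay close together and below all 6 month arrays. The fitted ratio at 24 months was -0.58 ± 0.09 (SE, n = 3), 1.49-fold lower, with an adjusted p of 0.00531 in limma.

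Mrpl40 and Mrpl54, which have no bacterial counterpart, and Mrpl18, whose human counterpart takes part in the import of 5S rRNA, were called lower at all 3 ages. Mrpl40 had ratios of -0.31, -0.34 and -0.20 at 6 months, -0.52, -0.38 and -0.28 at 16 months, and -0.49, -0.46 and -0.56 at 24 months. Mrpl54 had -0.28, -0.22 and -0.16, then -0.41, -0.29 and -0.30, then -0.47, -0.39 and -0.51 at the same ages. For both genes the 24 month arrays lay below all 6 month arrays, and their 16 month arrays overlapped the 24 month arrays. Mrpl18 had -0.38, -0.32 and -0.11, then -0.48, -0.37 and -0.43, then -0.57, -0.53 and -0.31, with overlap among all ages. Fitted folds at 24 months were 1.42 for Mrpl40, 1.37 for Mrpl54 and 1.38 for Mrpl18, all lower, with limma adjusted p of 0.00286, 0.00251 and 0.00547.

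Mrpl3, a protein of the large subunit core close to where peptide bonds form, had ratios of -0.39, -0.35 and -0.28 at 6 months, -0.01, -0.32 and -0.31 at 16 months, and -0.43, -0.42 and -0.20 at 24 months. It was called at 6 months (-0.34 ± 0.08, SE) and at 24 months (-0.35 ± 0.08) and not at 16 months (-0.21 ± 0.08, limma adjusted p = 0.0869). The other large subunit genes called lower at 24 months lay between -0.35 and -0.22: Mrpl15, Mrpl33, Mrpl22, Mrpl39, Mrpl16, Mrpl36 and Mrpl11. Mrpl11 binds the rRNA region where translation factors dock, and Mrpl22 lines the tunnel by which the peptide leaves. Mrpl11 was called lower at 16 months too (-0.20) and varied little, with 9 ratios from -0.25 to -0.10.

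Mrps22, a small subunit protein with no bacterial counterpart whose human gene is mutated in an inherited disorder of oxidative phosphorylation, was the lowest member at 24 months (chromosome 9, 98588730 to 98601679). It had ratios of -0.53, -0.38 and -0.10 at 6 months, -0.61, -0.58 and -0.59 at 16 months, and -0.86, -0.73 and -0.44 at 24 months. Every array was below 0, the 16 month arrays lay below all 6 month arrays, and the 24 and 6 month arrays overlapped. The fit gave -0.59 ± 0.10 at 16 months and -0.68 ± 0.10 at 24 months (SE, n = 3 each), with limma adjusted p of 0.00754 and 0.0047.

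Mrps14, a counterpart of a bacterial protein in the head of the small subunit, had -0.48, -0.24 and -0.02 at 6 months, -0.56, -0.61 and -0.49 at 16 months, and -0.54, -0.59 and -0.39 at 24 months. It was called lower at 16 months (-0.55) and 24 months (-0.51). Mrps31, which has no bacterial counterpart, had -0.15, -0.19 and 0.01 at 6 months, -0.07, -0.23 and -0.28 at 16 months, and -0.42, -0.44 and -0.30 at 24 months. All 3 of its 24 month arrays lay below all others, and it was called at 24 months (-0.39 ± 0.06, limma adjusted p = 0.00655) and at no other age. Mrps25, Mrps28, Mrps24 and Mrps15 were called lower as well, at -0.33, -0.32, -0.32 and -0.18. Mrps36, the protein outside the ribosome, was at -0.30 ± 0.08 (adjusted p = 0.0281).

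The 6 genes called higher at 24 months were Mrpl4, Mrps5, Mrpl37, Mrpl2, Mrps11 and Mrpl38. Mrpl4, a large subunit core protein beside the peptide tunnel, had 0.84, 0.54 and 0.08 at 6 months, 0.70, 0.96 and 0.63 at 16 months, and 0.64, 0.80 and 0.73 at 24 months. Mrps5, a small subunit protein with a part in accurate decoding, had 0.82, 0.72 and 0.30, then 0.81, 1.02 and 0.62, then 0.70, 0.47 and 0.64. Both were above 0 on all 9 arrays, overlapped among the ages, and were called higher at 6, 16 and 24 months. At 24 months the fit gave 0.72 ± 0.13 for Mrpl4 (1.65-fold, adjusted p = 0.00944) and 0.60 ± 0.11 for Mrps5 (1.52-fold, adjusted p = 0.0102) in limma.

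Mrpl37, which is found only in mitochondria, had 0.57, 0.48 and -0.03 at 6 months, 0.86, 1.07 and 0.61 at 16 months, and 0.43, 0.68 and 0.50 at 24 months. Its 3 arrays of 16 months lay above all 6 month arrays, and its fitted ratio was 0.85 ± 0.13 at 16 months and 0.54 ± 0.13 at 24 months. Mrpl2, a core protein at the peptidyl transferase centre, had 0.51, 0.76 and 0.25 at 24 months and a fit of 0.51 ± 0.10. Mrps11 and Mrpl38 were at 0.44 and 0.38. Mrps7, Mrps9, Mrpl46 and Mrps17 also had fitted ratios above 0.28 at 24 months, and none of these 4 was called.

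Brightness of the probes moved with direction. The 20 probes called lower at 24 months had a median Cy5 signal of 7704 (1701 to 42170), the 6 called higher 1114 (405 to 1633), and the 26 not called 4538 (674 to 25652). These are signals of probes and do not rank transcripts. The processed signals had been normalised between dyes with a smooth over brightness. With normexp background correction and loess in its place, 22 members were called lower (42.3%, against 11.7% of all names) and 5 higher (against 9.87%), and all 20 lower genes were among the 22. Centring the processed ratios on the median of each array gave 16 lower (30.8%, against 11.6%) and 8 higher (against 12.8%). The authors' scores gave 26 lower (against 17.1%) and 6 higher (against 10.9%). With normexp and median centring but no loess, 39 members were called lower (75% of members, against 35.9% of all names) and 3 higher (against 34.6%), at a median of -0.73. The ratios of the 6 higher genes were smaller in that setting: without loess Mrps11 was at 0.05, Mrpl2 at 0.11, Mrps5 at 0.12, Mrpl38 at 0.15, Mrpl4 at 0.49 and Mrpl37 at 0.53. With normexp and loess Mrpl37 was at 0.20, Mrpl38 at 0.24, Mrpl2 at 0.32 and Mrpl4 at 0.40. The part of the dye in these ratios was not tested, as no array had the dyes swapped.

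**Figure D2:**
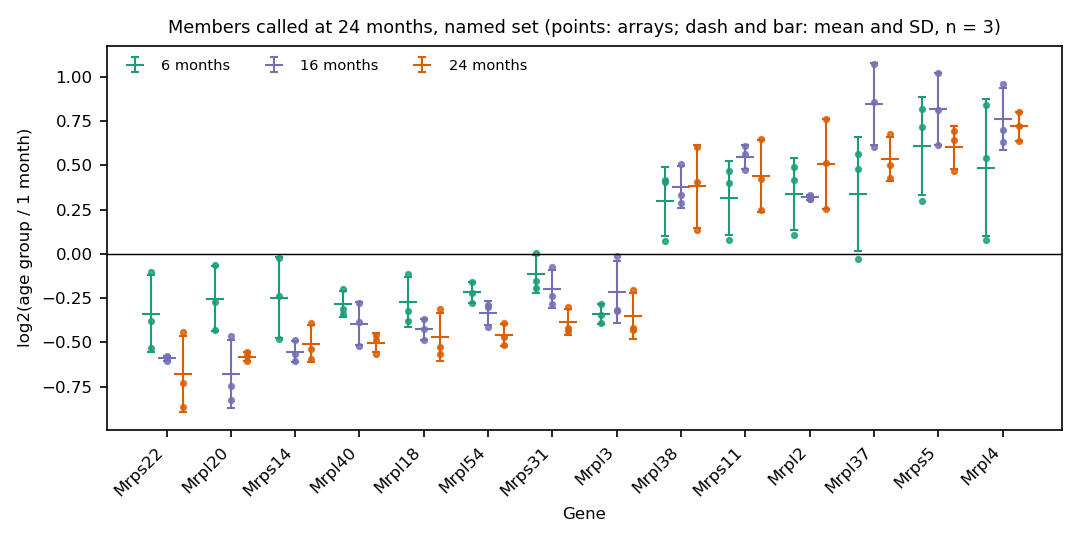
Log2 ratios to the 1 month reference (y axis) for the 8 lowest and the 6 highest genes called at 24 months (x axis). Points are arrays, with the mean and SD of 3 mice for 6, 16 and 24 months, and for Mrpl20, Mrpl40, Mrpl54 and Mrps31 all 24 month arrays lie below all 6 month arrays. For Mrps5 they overlap: the 24 month arrays lie between 0.47 and 0.70 and the 6 month arrays between 0.30 and 0.82.

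At 6 months, 4 genes were called lower (Mrpl3, Mrpl40, Mrpl18 and Mrpl54, 7.69% of members against 4.85% of all names) and 3 higher (Mrps5, Mrpl46 and Mrpl4, 5.77% against 7.46%). The median was -0.02, against -0.01 over all names. All 3 arrays of 6 months were below 0 for 20 members (38.5%, against 31% of all names) and above 0 for 11 (21.2%, against 26.6%). The mean of all probes of a gene gave 2 lower (3.85%, against 4.71%) and 5 higher (against 7.44%): the second probe of Mrpl40 was at -0.09 (limma adjusted p = 0.389) and the second of Mrpl3 at 0.00 (adjusted p = 0.994). The authors' scores gave 11 lower (21.2%, against 7.64%) and 3 higher (against 6.4%) at this age. Normexp with loess gave 8 lower (15.4%, against 7.86%) and 4 higher (against 8.81%), and normexp without loess 36 lower (69.2%, against 24.2%) and 2 higher (against 27.3%). With haemoglobin as a covariate 0 members were called at 6 months in limma, with 12 at an unadjusted p under 0.05, and likewise 0 without replicate 1 or without replicate 2 of that age, with 10 each at an unadjusted p under 0.05. Over all names, these settings in that order called 0.929%, 3.1% and 0.606% higher, and 0.214%, 1.23% and 0.123% lower. These shares are at an adjusted p under 0.05 and are no background for the unadjusted counts. The unadjusted counts have no share of all names here and describe the members only.

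At 16 months, 8 genes were called lower (15.4% against 6.71% of all names) and 9 higher (17.3% against 11.2%), with a median of -0.02 for the members and for all names. All 3 arrays of 16 months were below 0 for 21 members (40.4%, against 30.7%) and above 0 for 18 (34.6%, against 28.5%). All 8 lower genes (Mrpl11, Mrpl18, Mrpl20, Mrpl40, Mrpl54, Mrps14, Mrps22 and Mrps24) were called lower at 24 months too. The higher genes were Mrpl37, Mrps5, Mrpl4, Mrps7, Mrps11, Mrpl46, Mrpl19, Mrpl38 and Mrpl28, of which 5 were also called higher at 24 months. The authors' scores gave 14 lower (26.9%, against 11.3%) and 6 higher (against 9.06%). Normexp with loess gave 12 lower (23.1%, against 11.6%) and 9 higher (against 12.8%), and normexp without loess 29 lower (55.8%, against 22.4%) and 4 higher (against 20.7%). Without replicate 2 of 16 months, 4 were called lower (7.69%, against 0.997%) and 1 higher (against 2.24%).

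Mrpl46, which has no bacterial counterpart, was called higher at 6 months (0.49 ± 0.09, limma adjusted p = 0.016) and 16 months (0.51 ± 0.09, adjusted p = 0.00932), and was at 0.28 ± 0.09 at 24 months (adjusted p = 0.0509). Its ratios at 24 months were 0.17, 0.11 and 0.56, with replicate 3 apart from the other 2. Mrpl46 and Mrps11 start 42 bases apart on opposite strands of chromosome 7. Mrps11 was at 0.31, 0.55 and 0.44 at 6, 16 and 24 months, so both genes of this pair lay above 0 at each age, and all 9 ratios of each were above 0.

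Such head to head starts within 1000 bases could be found only for genes with a promoter window. They were listed for 13 of the 45 members with a window and for 12.3% of 27025 genes. Mrpl46 and Mrps11 are each other's partner and form 1 pair. In 8 of these pairs both genes were measured, and in 5 of the 8 both lay on the same side of 0 at 24 months. Mrpl40 was at -0.50 while its neighbour Hira, a histone chaperone, was at -0.05 (limma adjusted p = 0.448). Mrpl18 was at -0.47 while Tcp1, a subunit of the cytosolic chaperonin, was at 0.16 (adjusted p = 0.137). Mrpl2 (0.51) and Klc4, a kinesin light chain (0.32, adjusted p = 0.0332), were both called higher. Mrps18b was at -0.16 and not called, while its neighbour Ppp1r10 was called higher (0.81, limma adjusted p = 0.00415). Mrpl49 was at -0.11 while Fau was at 0.51 (adjusted p = 0.112). Shared sides of 0 were not counted over all head to head pairs on the array, so 5 of 8 has no background.

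Across the 3 ages, 7 members had all 9 ratios above 0 (Mrpl2, Mrpl38, Mrpl4, Mrpl46, Mrps11, Mrps5 and Mrps9) and 13 had all 9 below 0, together 20 of 52, where 26.7% of all names had 9 ratios of the same sign. The 3 ages share the same kind of reference RNA, so these signs are not independent. No member was called in opposite directions at different ages.

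Between the older ages, where Cy3 is compared with Cy3, limma called 0 of the 52 members and 0 of 34993 names at an adjusted p under 0.05, in any of the 3 pairs of ages or in the F test over them. At an unadjusted p under 0.05, 10 members were lower at 24 than at 6 months (19.2%, against 5.4% of all names) and 0 were higher (against 3.73%). Between 24 and 16 months 4 were lower (7.69%, against 3.49%) and 0 higher (against 1.26%). Between 16 and 6 months 4 were higher (7.69%, against 3.2%) and 3 lower (5.77%, against 3.17%). The F test gave 6 members at that level (11.5%, against 6.66%).

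The members' median difference was -0.08 for 24 against 6 months, with 38 of 52 genes below 0, against -0.02 over all names. For 24 against 16 months it was -0.11, with 44 of 52 below 0, against -0.02 over all names. With normexp and no loess these medians were -0.30 and -0.31. From the authors' scores they were -0.04 and -0.05, in units of standardised log10 signal that cannot be set beside log2 values. For 16 against 6 months it was 0.00, with 26 of 52 below 0, against 0.01 over all names. In 13 members all 24 month arrays lay below all 6 month arrays (25% of members, against 10.1% of all names), and in 1 member, Mrpl28, they lay above (1.92%, against 5.97%). For 24 against 16 months 4 members lay below without overlap (7.69%, against 6.28%) and 0 above (against 4.38%). For 16 against 6 months 6 lay above (11.5%, against 7.25%) and 5 below (9.62%, against 6.72%).

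Per array, the member median was -0.07, -0.02 and -0.02 at 6 months, -0.02, 0.03 and -0.02 at 16 months, and -0.12, -0.15 and -0.11 at 24 months. All 3 arrays of 24 months lay below the other 6. Over all names the array medians ran from -0.03 to -0.01. The lowest member median belonged to the dim array, replicate 2 of 24 months, and without it the median difference of 24 against 6 months was -0.07. Without replicate 3 of 24 months that difference was -0.13, and it was also -0.13 with haemoglobin as a covariate. Haemoglobin ratios at 24 months ran from -0.94 to 0.67 across arrays whose member medians ran from -0.15 to -0.11.

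**Figure D3:**
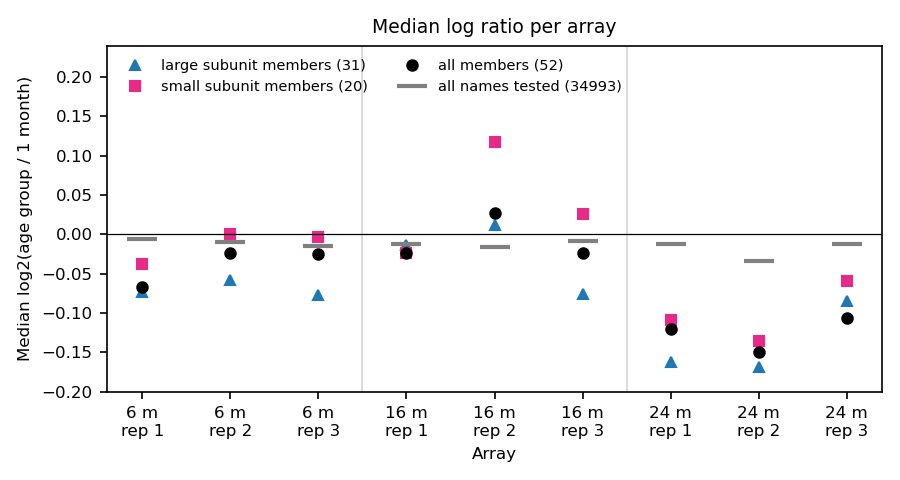
Median log2 ratio to the 1 month reference per array (x axis, 6, 16 and 24 months with 3 mice each), for all 52 members, for the 31 large and 20 small subunit genes and for all 34993 names. Member medians of 24 months lie between -0.15 and -0.11, below the -0.07 to 0.03 of the other 6 arrays.

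The smallest p for 24 against 6 months belonged to Mrpl39, which is related to threonyl-tRNA synthetase and has no bacterial ribosomal counterpart. It had -0.25, -0.31 and -0.16 at 24 months, against -0.04, 0.01 and 0.14 at 6 months. The arrays did not overlap, the difference was -0.27 ± 0.08 (SE), and limma gave an unadjusted p of 0.0083 and an adjusted p of 0.464. Mrpl54 (-0.24), Mrps15 (-0.19), Mrps31 (-0.27) and Mrps36 (-0.32) followed, each without overlap and with adjusted p of 0.467 to 0.505.

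Mrps15, a counterpart of a bacterial protein that organises the central domain of the small subunit rRNA, had the smallest p for 24 against 16 months and in the F test. Its ratios were 0.06, -0.01 and 0.00 at 6 months, -0.03, 0.04 and 0.03 at 16 months, and -0.18, -0.15 and -0.19 at 24 months. All 6 younger arrays lay near 0 and all 3 of 24 months lay below them. The difference was -0.19 ± 0.06 for 24 against 16 months (limma unadjusted p = 0.0127, adjusted p = 0.862). Mrps12, a decoding centre protein, was at -0.22 for that pair, Mrpl36 at -0.23, Mrpl27 at -0.18 and Mrps18a at -0.24.

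For 16 against 6 months the smallest p belonged to Mrpl20 (-0.43 ± 0.12, limma unadjusted p = 0.00809, adjusted p = 0.769). It had -0.83, -0.75 and -0.46 at 16 months, against -0.43, -0.27 and -0.06 at 6 months, and the arrays did not overlap. Mrpl37 was at 0.51, Mrpl27 at 0.20, Mrps14 at -0.31 and Mrpl28 at 0.18 for the same pair. In simulated data with known changes, a log2 change of 0.5 was recovered for 12% of probes between 24 and 6 months and for 52% between 24 months and the reference. A change of 0.25 was recovered for 0% and 4%. The simulation changed 50 of 36916 probes at each size, far fewer than were called at 24 months against the reference (11.5% of names higher and 13.4% lower). Its shares for the reference therefore do not carry over to these data, where Mrpl11, at -0.22, was called. The simulated noise was normal and independent between probes and arrays. How many probes differ between 24 and 6 months is not known, so the shares for that pair hold for the simulated setting only.

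**Figure D4:**
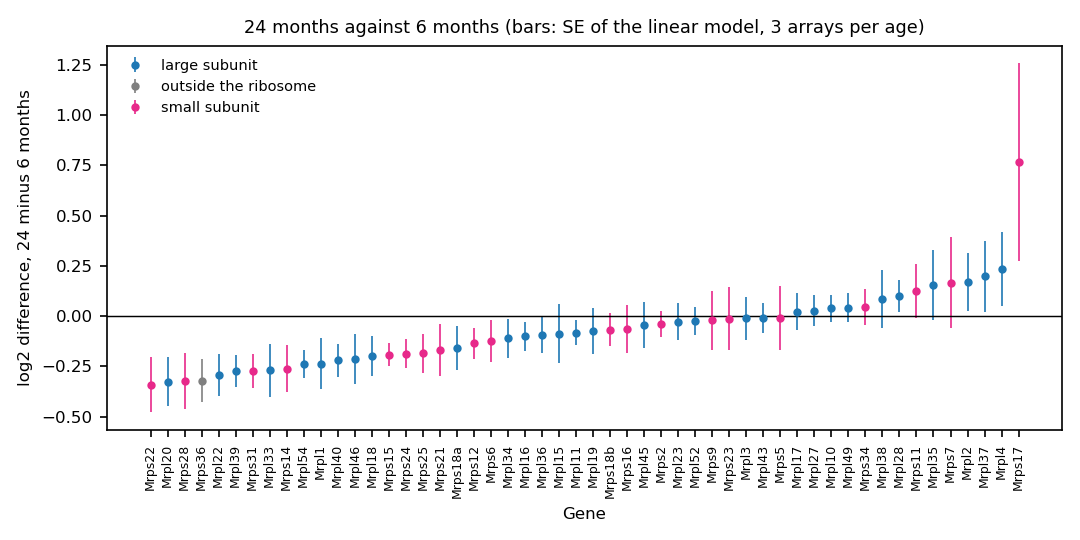
Difference in log2 ratio between 24 and 6 months (y axis) for the 52 genes in order (x axis), with SE bars from the linear model on 3 arrays per age and colours for the subunit. Genes below 0 number 38 and run down to -0.34 for Mrps22, most bars are shorter than 0.2, and Mrps17 stands at 0.77 with an SE of 0.49.

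Mrps17, a counterpart of a bacterial rRNA binding protein, was the least reproducible member. Its ratios were -0.63, 0.46 and 0.98 at 6 months, 1.30, 0.78 and 0.62 at 16 months, and 1.09, 0.22 and 1.80 at 24 months. Its SD among 3 arrays was 0.82, 0.36 and 0.79 at the 3 ages, and its ratio of 1.04 ± 0.35 at 24 months was not called (limma adjusted p = 0.0624). Mrpl35 had 0.58 on the dim array of 24 months and between -0.13 and 0.10 on the other 8. At the other end, Mrpl10, a stalk protein of the large subunit, stayed between -0.14 and 0.03 on all 9 arrays, and Mrps2 between -0.15 and -0.02.

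Mrps18a, which sits in the large subunit, had 0.21, 0.07 and -0.16 at 6 months, 0.00, 0.27 and 0.10 at 16 months, and -0.11, -0.17 and -0.08 at 24 months, and was called at no age. Mrps18b, a related protein of the small subunit, was at -0.16 ± 0.06 at 24 months (limma adjusted p = 0.084).

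More than 1 probe was present for 10 genes. At 24 months the probes of 5 of these genes differed in sign, and in 1 gene, Mrpl1, they were called in opposite directions. The call differed among the probes of 4 genes at 24 months, of 6 at 16 months and of 4 at 6 months. The brightest Mrpl1 probe was at -0.24 ± 0.09 (limma adjusted p = 0.0838), the next at -0.38 ± 0.06 (adjusted p = 0.00597) and the dimmest at 0.63 ± 0.11 (adjusted p = 0.00861). The direction for Mrpl1 is thus unsettled, and probe sequences, which would tell which transcripts each probe reads, were not used here.

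Mrpl3 had 4 probes, at -0.35, -0.15, 0.12 and -0.43 at 24 months, of which the first and the last were called. Mrps5 had 3, at 0.60, -0.03 and 0.35, of which the first and the last were called, so 2 of 3 probes placed it above the reference. Mrpl38 was called on its brighter probe (0.38) and was at 0.03 on the other. Both probes of Mrpl40 (-0.50 and -0.35) and both of Mrps36 (-0.30 and -0.38) were called lower. Mrpl45 had -0.08 and 0.04, Mrpl49 -0.11, -0.02 and 0.21, Mrps23 0.07 and 0.16, and Mrps9 0.31 and 0.39, none of them called at 24 months. With the mean of all probes per gene, 19 members were called lower at 24 months (36.5%, against 13.2% of all names) and 6 higher (against 11.6%).

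**Figure D5:**
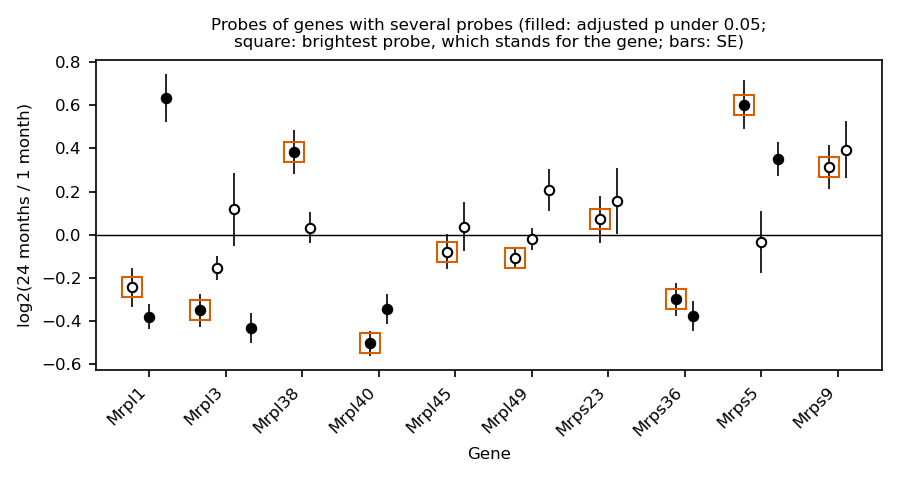
Log2 ratio of 24 months to the 1 month reference (y axis) for each probe of the 10 genes with several probes (x axis), with SE bars. Filled points were called, squares mark the brightest probe, and the Mrpl1 probes lie at -0.24, -0.38 and 0.63.

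Other parts of mitochondrial translation were looked at through lists of genes. Over all names, 11.5% were called higher and 13.4% lower at 24 months, and 11.2% and 6.71% at 16 months. Most of these lists are short, and their counts describe the named genes only. Of 7 mitochondrial ribosomal proteins outside the naming rule, 6 were measured, with a median of -0.15 at 24 months. Chchd1 (-0.48 ± 0.08, limma adjusted p = 0.00669) and Aurkaip1 (-0.20 ± 0.05, adjusted p = 0.0217) were called lower, and Mrp63 (0.38 ± 0.10, adjusted p = 0.0303) higher. The array names Chchd1 and Aurkaip1 by clone, and they were matched through their accessions. Chchd1 was called lower at 16 months as well (-0.41).

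Mitochondrial translation factors had 7 of 13 genes measured, and at 24 months 1 was called higher and 0 lower, at a median of -0.06. That gene was Mtif3, an initiation factor, at 0.47. At 16 months Gfm1, an elongation factor, and Mtif2, an initiation factor, were called higher (0.61 and 0.29). Of 20 mitochondrial aminoacyl-tRNA synthetases and related enzymes, 7 were measured, with 2 called higher at 24 months (Tars2, 0.40, and Hars2, 0.27) and 0 lower, at a median of 0.16. At 16 months Rars2 (0.64) was called higher in addition to Tars2 (0.63) and Hars2 (0.38).

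Factors of ribosome assembly and rRNA modification had 13 of 22 measured, with a median of 0.02 at 24 months. The helicase Ddx28 (0.70) and the GTPase Noa1 (0.39) were called higher and the rRNA methyltransferase Mrm1 (-0.43) lower. At 16 months 6 of these 13 were called higher and 0 lower, led by Ddx28 (0.83), Mpv17l2 (0.55) and Mtg2 (0.42). Cytosolic ribosomal proteins, of which 55 names were measured, had 16 called higher and 12 lower at 24 months with a median of 0.15, and near-identical pseudogene copies make single genes of that family uncertain.

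Regulators of mitochondrial genes had 11 of 13 measured, with 3 called higher and 3 lower at 24 months. Gabpa, the DNA-binding subunit of the ETS factor GABP, was lower at all 3 ages (-0.37, -0.47 and -0.67, limma adjusted p = 0.0454, 0.0169 and 0.0051), and Gabpb1, its partner, was higher at 24 months (0.34, adjusted p = 0.0176). Nrf1 (0.46, adjusted p = 0.0275) and the nuclear receptor Esrra (0.46, adjusted p = 0.00243) were higher at 24 months, and Tfb2m (-0.52) and Polrmt (-0.28), which transcribe mitochondrial DNA, were lower. None of the genes in these 6 lists was called between 6, 16 and 24 months in limma, as no name on the array was.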

How the data were processed

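Thymocyte RNA of 9 C57BL/6 mice (3 each of 6, 16 and 24 months, Cy3) was hybridised with 1 month RNA (Cy5) on 9 arrays, per the labels. The deposited scanner files hold intensity values. The authors' software had background-subtracted the processed signals and normalised them between dyes by a local smooth (factor 0.25), as recorded per the file headers. Agilent Feature Extraction is given as version 7.5.1 there and as 7.1 in the submitters' processing notes. The authors' deposited table holds a score per channel, checked to be the standardised log10 processed signal (r = 1.0 in every channel).

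Computed here were log2(Cy3/Cy5) of the processed signals, averaged over spots of a probe. Spots marked as outliers were left out (34 to 179 per array, none of a member). A probe entered if its Cy3 signal was well above background on the 3 arrays of any age, or its Cy5 signal on all 9. A limma 3.58.1 model (R 4.3.3, with the data.table package at version 1.17.8) with a mean for each age took in all 9 arrays (residual degrees of freedom 6, prior 1.94), two-sided, with Benjamini-Hochberg adjustment over all tested probes and a threshold of 0.05. The 1 month channel counted as 1 control sample. That replicates are separate mice comes from the labels. The number of arrays limits the precision.

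Genes were named by a rule: the 8 highest and 8 lowest called per age with 3 ratios of 1 sign, the 5 smallest p where none was called, genes whose probes disagree, Mrps18a and Mrps36, and up to 3 called per list. Genes given for their spread or level alone (Mrps17, Mrpl35, Mrpl10, Mrps2, Mrps18b, Mrps9) and the head to head pairs were chosen after their values were seen. The members and lists were chosen with earlier results of these data known. The model was tested on simulated data. Promoter windows and coordinates came from RefSeq (GRCm38.p6). Alternatives were other normalisations, filters, a replicate block, haemoglobin as a covariate and left-out arrays. Tables and figures used Python 3.11.15, numpy 2.4.6, pandas 2.3.3 and matplotlib 3.10.9.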

Additional observations from a re-analysis of the deposited data

Results flagged for a closer look

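For the 14 genes named at 24 months, the 9 signals of the 1 month channel were checked for an array far from the rest. In 4 of the 14 genes the lowest signal stood apart by a gap larger than Dixon's critical value for 9 samples. The signals were 26628 for Mrpl20 (highest 47857), 7257 for Mrpl54 (highest 13309), 1132 for Mrps11 (highest 1741) and 4524 for Mrps22 (highest 8131). Chance marks about 5% of such groups. In all 14 genes the lowest signal came from the array of 24 months replicate 2, the array that was dim for the members as a whole, and the ratio to the Cy3 signal of the same array is what the tests used. Without that array, 8 members were called lower at 24 months (against 4.92% of all names) and 3 higher (against 6.02%).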

How the results depend on the processing

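Counts of called members against the 1 month reference depended on the processing. At 24 months 26 were called as reported (20 lower, against 13.4% of all names, and 6 higher, against 11.5%). Normexp and median centring without loess gave 42 (39 lower, against 35.9% of all names, and 3 higher, against 34.6%). Leaving out the 3 arrays highest in haemoglobin gave 12 (11 lower, against 5.75%, and 1 higher, against 3.99%). There were 0 when the 24 month arrays were fitted alone (29 at an unadjusted p under 0.05). Leaving out 1 array at a time gave 9 to 26. Without 24 months replicate 1 the 9 were 8 lower (against 4.95%) and 1 higher (against 4.37%). Without 6 months replicate 1 the 26 were 18 lower (against 11.7%) and 8 higher (against 11.5%). At 16 months 17 were called as reported (9 higher, against 11.2%, and 8 lower, against 6.71%). There were 33 without loess (4 higher, against 20.7%, and 29 lower, against 22.4%). With 1 array left out there were 5 to 19. The 5, without 16 months replicate 2, were 1 higher (against 2.24%) and 4 lower (against 0.997%). The 19, without 6 months replicate 3, were 10 higher (against 10.9%) and 9 lower (against 5.91%). Dropping the 3 arrays with most haemoglobin left 1 array of that age, where the member median was -0.02. At 6 months 7 were called as reported (3 higher, against 7.46%, and 4 lower, against 4.85%). There were 12 with normexp and loess, 38 without loess, 14 from the authors' scores and 0 with haemoglobin as a covariate (12 unadjusted), with shares of all names given above. Without the 3 arrays highest in haemoglobin there were 3: 1 higher (against 4.79%) and 2 lower (against 2.16%). The 6 month arrays alone gave 0 (19 unadjusted). With 1 array left out there were 0 to 10. Without 6 months replicate 3 the 10 were 6 higher (against 4.81%) and 4 lower (against 1.81%). Fewer arrays in the fit leave fewer degrees of freedom, and the cause of the other changes was not tested. The counts at an unadjusted p in this section are given without a share of all names and describe the members only. Between the ages 0 members were called under every alternative run.

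Replicate numbers did not pair the arrays: deviations of same-numbered arrays correlated at -0.31 to 0.10, and 1 of 9 arrays correlated best with its own number at both other ages. With the replicate block, 2 members were called higher at 6 months (against 4.14% of all names) and 0 lower (against 2.24%). At 16 months 8 were higher (against 8.72%) and 8 lower (against 4.66%). At 24 months 6 were higher (against 9.19%) and 17 lower (against 10.7%). Of 777 values of named called genes under the alternatives, 618 stayed past the threshold, 159 did not and 0 changed direction. On the log2 scale the median difference of 24 against 6 months ran from -0.30 to -0.06, and that of 24 against 16 months from -0.31 to -0.07. The authors' scores, whose unit is not log2, are left out of these ranges. Scan day as a block was not run: the headers give the day of feature extraction, which was 1 for all arrays, and scan days were not analysed here. Whether scan day moves with the groups was not tested.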
